A study of Mus musculus with 39 samples.

Results

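Dense clusters of glucocorticoid receptor (GR) and estrogen receptor (ER) sites were defined from 2 site lists of 7438 mouse mammary cells, GR after dexamethasone (Dex) and ER after estradiol (E2). The 12084 GR sites and 7136 ER sites were pooled, and sites that shared at least 1 bp were merged into 18029 merged sites. Neighbours on a chromosome were chained when the gap between them was at most 12.5 kb, which gave 11267 chains. A chain of 4 or more merged sites is called a cluster. There were 729 clusters, and they held 3829 of the 18029 merged sites (21.2%). Of the other 14200 merged sites, 6549 lay in chains of 2 or 3 and 7651 stood alone. Some sites of a list came from the same region, called a parent region, so not all cluster members were separate regions. Of the 2559 clustered GR sites 403 (15.7%) shared a parent region, against 5.23% of GR sites outside clusters. For ER these were 207 of 1667 (12.4%) and 4.65%. In chains of 2 or 3 the shares were 11.3% for GR and 9.61% for ER, and among sites alone they were 0%. How many clusters would remain with the sites of a parent region counted together was not tested.

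GR and ER are steroid hormone receptors that bind DNA as transcription factors once their ligand is present, each at its own response element or through other bound factors. Such sites often lie in groups within long enhancer regions, where several factors occupy neighbouring stretches of open chromatin. AP-1, a dimer of Fos and Jun proteins, is one of the factors known to keep enhancers of mammary epithelial cells accessible to GR and to carry ER to sites without an estrogen response element.

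The study asked by ChIP-seq (sequencing of chromatin fragments recovered with an antibody) where each receptor sits when its ligands are given alone or together. 7438 cells carry a GFP-tagged GR and a Cherry-tagged ER under tetracycline-regulated promoters, and the drug was withdrawn before hormone treatment to switch both on. The 7438 Afos cells express Afos from such a promoter as well. Its name is not explained in the labels. As background, the A-Fos protein pairs with Jun and so prevents AP-1 from binding DNA. Cells of either background were untreated or received 100 nM Dex, 100 nM E2 or both hormones (Dex+E2) for 30 min. Both fusion proteins are thus present in every group, controls included. Site lists of 24 of the 39 samples were used: 1 list for each receptor and treatment in 7438 and 2 replicate lists for each in 7438 Afos. The labels name 2 replicates for each 7438 group as well, and its 1 list is filed under replicate 1. Whether that list draws on both replicates is not known here. Nothing states whether the 7438 Afos replicates came from separate cultures, so p-values measure only the spread between their lists.

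Several properties of the lists bear on all that follows. For both receptors, the 7438 list whose file is named Both is filed under a sample labelled untreated, and the list named unt is filed under Dex+E2. The names are used here, and the values of the list filed under Dex+E2 are given beside the first results. The GR list named Both held 9503 sites and the ER list 11982, against 143 and 373 sites in the lists named unt. Read totals were not used here, so the depth is unknown. All 7438 sites were 150 bp wide, whereas the 7438 Afos sites were at least 251 bp wide, and a wide site can also cover a neighbour of the site it was called on. The intervals given are exact (Clopper-Pearson) 95% intervals for shares and Newcombe 95% intervals for differences, and they cover counting error only. Standard errors (SE) over chains treat each chain as 1 unit.

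Most clusters were small, and a few were very large. Of the 729 clusters, 350 held 4 sites, 174 held 5, 84 held 6, 44 held 7 and 31 held 8. The 7 largest held from 13 to 26 sites. A cluster spanned 15.8 kb in the median (quartiles 10.1 and 22.6 kb), with extremes of 1.96 and 88.5 kb. All clusters together covered 12723 kb. The median gap between neighbours inside a cluster was 2805 bp (quartiles 962 and 6375 bp), and 799 of the 3100 gaps (25.8%) were at most 1000 bp. At the limit of the rule, the widest gap inside a cluster was 12469 bp and the narrowest gap between separate chains was 12513 bp.

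The receptors were mixed in most clusters. A total of 564 clusters (77.4%) held sites of both receptors, 134 held GR alone and 31 held ER alone. Of the 350 clusters of 4 sites, 68.9% held both receptors, against 84.1% of the 258 clusters of 5 or 6 and 88.2% of the 93 clusters of 7 to 9. A larger cluster has more sites at which either receptor can occur, so this order is a description only. Over all merged sites 60.4% were GR only and 33.0% ER only. Whether clusters held both receptors more or less often than such shares give was not tested. Among the 3829 clustered sites, 2162 were GR only (56.5%), 1270 were ER only (33.2%) and 397 were shared, that is, held a GR and an ER site at once (10.4%, interval 9.42 to 11.4%). Over all merged sites 6.59% were shared. The shared fraction was 7.41% in chains of 2 or 3 (6.78 to 8.07%) and 4.0% for sites alone (3.57 to 4.46%). The share of ER-only sites was nearly the same at every density, 33.2% in clusters, 32.9% in chains of 2 or 3 and 32.9% alone. The share of GR-only sites was lower in clusters (56.5%) than in chains of 2 or 3 (59.7%) and alone (63.1%).

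Sites of like and of unlike receptors lay side by side. Of the 3100 pairs of neighbours inside clusters, 1155 joined a GR-only site with another (37.3%), 509 joined ER-only sites (16.4%), and 827 joined a GR-only with an ER-only site (26.7%). The remaining 609 pairs included a shared site (19.6%). For pairs in chains of 2 or 3 these shares were, in the same order, 43.4%, 18.3%, 24.0% and 14.3%. Whether unlike receptors were neighbours more or less often than the shares of GR-only (56.5%) and ER-only (33.2%) clustered sites give was not tested. The median gap was 3067 bp for pairs of unlike receptors, 2820 bp for GR-only pairs and 2803 bp for ER-only pairs. In chains of 2 or 3 the gap was longer between unlike receptors (4472.5 bp) than between GR-only sites (2825.5 bp) or ER-only sites (3454 bp).

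The largest cluster lay on chromosome 1 (74034532 to 74123013, mm9 as listed) and held 26 merged sites in 88.5 kb. It had 12 GR-only, 10 ER-only and 4 shared sites. Its strongest GR site had a highest tag density (the authors' signal for the height of a site) of 605 in the Dex list, and its strongest ER site 94.2 in the E2 list. Of its 16 GR sites 13 were in the GR list named Both, and of its 14 ER sites 12 were in the ER list named Both. In addition 4 of its 10 ER-only sites appeared in the GR list named Both and 3 of its 12 GR-only sites in the ER list. In 7438 Afos 11 of the 16 GR sites were in a Dex list and 8 of the 14 ER sites in an E2 list.

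Other large clusters differed in their mix. A cluster on chromosome 7 (71218352 to 71235619) packed 13 sites into 17.3 kb, all ER only and none of them stronger than a tag density of 28.2. Of its 13 sites 12 were in the ER list named Both and none in the GR list named Both. All 13 were in the 7438 Afos ER list with E2 of replicate 1, and 7 were in that of replicate 2. The 7438 Afos GR lists with Dex+E2 held 8 and 3 of them, and those with E2 alone 3 and 0. A cluster on chromosome 2 (179949219 to 179968082) held 10 ER-only and 3 GR-only sites in 18.9 kb. All 10 ER sites were in the ER list named Both, which also held all 3 GR-only sites, and 9 of the 10 were in a 7438 Afos E2 list. Only 1 of its 3 GR sites was in a 7438 Afos Dex list.

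Clusters richer in GR lay on chromosome 6 (31001948 to 31074363), with 10 GR-only, 3 ER-only and 3 shared sites, and on chromosome 5 (112683467 to 112726463), with 9 GR-only and 3 ER-only sites. On chromosome 6 the GR list named Both held 8 of 13 GR sites and a 7438 Afos Dex list also held 8. On chromosome 5 the numbers were 5 and 4 of 9. Of the 5 other clusters among the 10 largest, those on chromosome 11 (117106747 to 117189314) and chromosome 4 (45474688 to 45527747) had more ER-only than GR-only sites. On chromosome 4, 2 of 6 GR sites were in a 7438 Afos Dex list and 4 in a Dex+E2 list, and 3 of 8 ER sites were in an E2 list. The clusters on chromosome 2 (167568152 to 167607308), chromosome 16 (33855392 to 33892993) and chromosome 11 (51725106 to 51774501) had more GR-only sites. The first of these had all 5 ER sites in a 7438 Afos E2 list and 6 of 8 GR sites in a Dex list. Genes at these positions were not named, since no annotation of mm9 was used here.

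**Figure D1:**
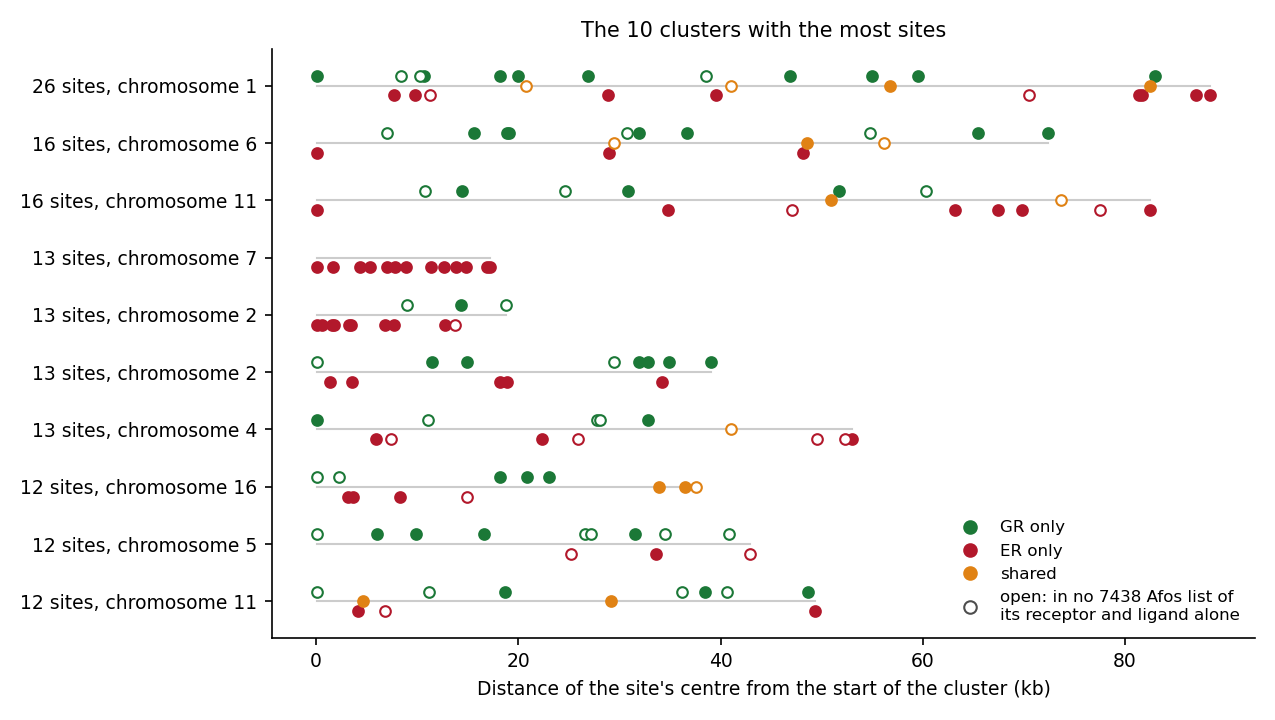
The 10 clusters with the most merged sites, 1 line a cluster, with the distance of each site's centre from the start of the cluster in kb. Green, red and orange points are GR-only, ER-only and shared sites, and an open point is a site in neither 7438 Afos list of its receptor with its own ligand alone (for a shared site, in no such list of either receptor). All 13 sites of the chromosome 7 cluster are ER only and filled, and most other clusters mix colours and hold open points.

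Clustered sites were stronger than other sites in the 2 lists that defined them. Strength is given as a percentile, from the order of highest tag densities in the list a site came from. Since these lists chose the members, the ranks are a description. The median GR rank was 62.4 in clusters, 51.6 in chains of 2 or 3 and 42.2 for sites alone. The median ER rank was 59.0, 51.3 and 43.8 in the same order. Of the clustered GR sites 28.6% were at or above percentile 80 of the Dex list, against 17.7% of GR sites outside clusters, and for ER these shares were 26.9% and 17.9%. Shared clustered sites ranked at 66.6 for GR and at 57.0 for ER in the median, against 61.7 for GR-only and 59.5 for ER-only clustered sites.

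The 5 strongest GR sites inside clusters had tag densities from 596 to 759 in the Dex list. The first lay on chromosome 17 (28649867 to 28650017), a GR-only site in a cluster of 9 sites with a density of 759. It was also in the GR list named Both and in all 4 7438 Afos GR lists with Dex or Dex+E2. Another, on chromosome 11 (101561847 to 101562023), was shared, with a GR density of 675 and an ER density of 11.0. All 5 were in both 7438 Afos Dex lists and in the ER list named Both, although 3 of them had no ER site with E2 alone.

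The 5 strongest ER sites inside clusters had densities from 230.5 to 374 in the E2 list. The first was an ER-only site on chromosome 11 (79592192 to 79592342) in a cluster of 4 sites. The next, on chromosome 12 (16797346 to 16797551), was shared, with an ER density of 329 and a GR density of 30.2. All 5 were in both 7438 Afos E2 lists of ER and in the GR list named Both. All 5 were also in the 7438 Afos GR list with E2 of replicate 1, and 4 were in that of replicate 2.

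Clustered GR sites were found in the GR list named Both more often than other GR sites. Of the 2559 clustered GR sites 1954 were there (76.4%), against 60.3% of the 9523 GR sites outside clusters and 63.7% of all GR sites. The difference was 16.0 points (14.1 to 17.9, SE over chains 1.02). The share rose with the number of sites in the chain, from 55.3% for GR sites alone (53.9 to 56.6%) through 64.7% for chains of 2 and 68.9% for chains of 3 to 73.1% for clusters of 4. It was 77.4% in clusters of 5 or 6, 80.6% in clusters of 7 to 9 and 78.2% in clusters of 10 or more (71.9 to 83.6%). In the list named unt, which is filed under Dex+E2, 2.23% of clustered GR sites and 0.819% of the others were present.

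Clustered ER sites did not show such an order in the whole list. Of the 1667 clustered ER sites 88.6% were in the ER list named Both, against 88.2% of ER sites outside clusters and 88.3% of all ER sites. The difference of 0.398 points had an interval from -1.42 to 2.08. It was 11.0 points when only sites from the list's median density upward were counted and 12.3 points with lists cut to equal length. From ER sites alone to clusters of 10 or more, the shares lay between 87.0% and 89.6%. In the list named unt 4.26% of clustered ER sites and 1.99% of the others were present.

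The GR difference was smaller between sites of like strength. When sites were compared within 5 classes of strength, weighted as the clustered sites, the GR difference was 3.51 points (SE 0.833). Taken apart, it was 2.18 points (SE 0.892) for GR-only sites and -0.114 points (SE 1.05) for shared sites. The difference over all GR sites lay in the weak sites. In the weakest class 31.3% of clustered GR sites and 16.3% of other GR sites were in the list named Both, and in the next class 49.0% and 37.2%. In the strongest class the shares were 98.4% and 99.6%. For ER the difference within strength classes was -2.16 points (SE 0.807). It turned to 3.58 points when only sites from the list's median density upward were counted, 3.89 points with lists cut to equal length and 2.24 points in the list named unt. Each 7438 list is single, so these differences have no replicate check.

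**Figure D2:**
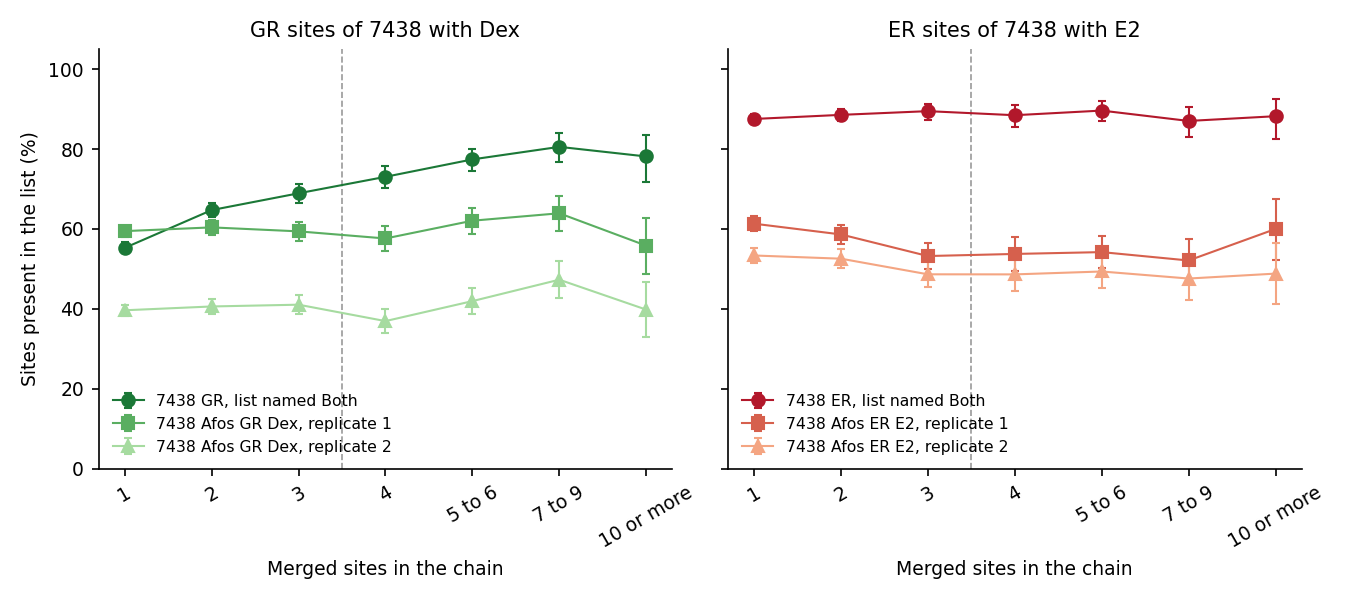
Share of GR sites (left) and ER sites (right) of 7438 present in the list named Both and in the 7438 Afos lists with the receptor's own ligand, in percent, by the number of merged sites in the chain. Bars are exact 95% intervals, and clusters lie to the right of the dashed line. The share of GR sites in the list named Both goes from 55.3% for sites alone to 80.6% in clusters of 7 to 9, while in the 7438 Afos list of replicate 1 the share of ER sites goes from 61.3% for sites alone to 52.1% in clusters of 7 to 9.

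Clusters also stood out in how often a site of 1 receptor appeared in the other receptor's list named Both. Of the 1270 clustered ER-only sites 369 were in the GR list named Both (29.1%, interval 26.6 to 31.6%), against 21.8% in chains of 2 or 3, 14.4% alone and 20.2% over all ER-only sites. Of the 2162 clustered GR-only sites 557 were in the ER list named Both (25.8%, 23.9 to 27.7%), against 18.7%, 12.8% and 17.5% in the same order. The differences between clustered and other sites were 11.3 points (8.59 to 14.0) and 10.3 points (8.36 to 12.3). Within strength classes they were 6.02 points (SE 1.33) and 5.86 points (SE 1.04). Without sites that had a neighbour within 1000 bp, the differences over all strengths were 9.33 and 10.9 points. In the lists named unt, the shares of clustered sites were 0.0787% and 0.971%.

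The sites that appeared there ranked lower in the median than the sites of the list's own receptor. Clustered ER-only sites had a median rank of 44.4 in the GR list named Both, where clustered GR sites had 64.7. Outside clusters these medians were 36.9 and 51.9. Clustered GR-only sites had a median rank of 48.2 in the ER list named Both, where clustered ER sites had 75.9. Outside clusters they were 40.5 and 65.3. Shared sites were nearly always present, 96.2% of the clustered ones in the GR list and 91.4% in the ER list, and the shares outside clusters were 94.6% and 94.3%. By cluster, 374 of the 680 clusters with a GR-only site (55.0%) had at least 1 such site in the ER list named Both. Of the 524 clusters with an ER-only site 263 (50.2%) had at least 1 in the GR list named Both. Either held for 506 of the 729 clusters (69.4%).

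**Figure D3:**
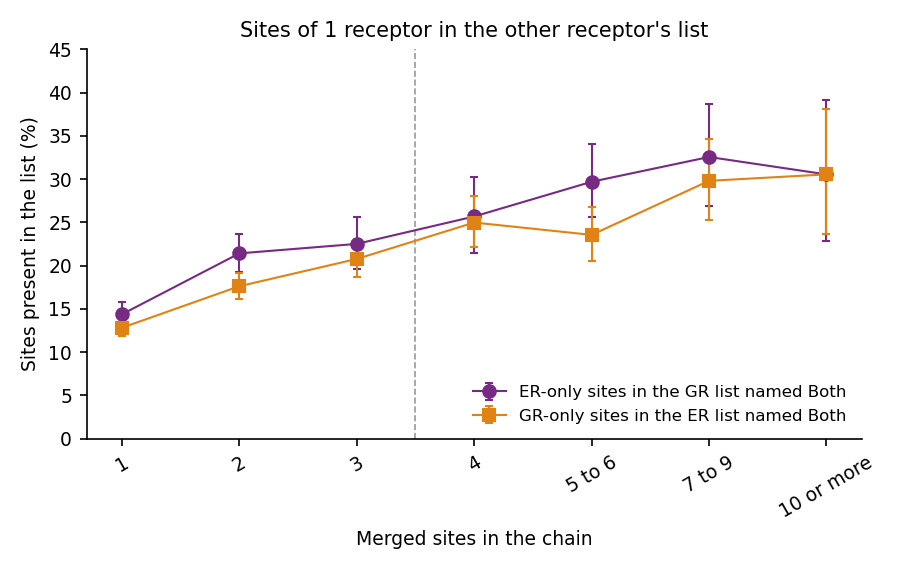
Share of ER-only sites in the GR list named Both and of GR-only sites in the ER list named Both, in percent, by the number of merged sites in the chain, with exact 95% intervals. Clusters lie to the right of the dashed line. Both shares are lowest for sites alone (14.4% and 12.8%) and near 30% in clusters of 10 or more (30.5% for each).

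In 7438 Afos cells clustered GR sites were present about as often as other GR sites. The Dex list of replicate 1 held 60.2% of clustered GR sites and that of replicate 2 held 40.8%, against 59.7% and 40.2% of GR sites outside clusters. At least 1 of the 2 Dex lists held 60.5% of clustered GR sites (58.6 to 62.4%), against 60.5% of all GR sites. The gap between the replicate lists was thus far larger than that between clustered and other sites. In the Dex+E2 lists 61.2% and 63.8% of clustered GR sites were present, and 68.3% were in at least 1 of them, as were 68.3% of all GR sites. The mean share was 50.5% ± 13.7 (SD, n = 2 lists) with Dex and 62.5% ± 1.82 with Dex+E2. The difference of 12.0 points gave p = 0.33 in a two-sided exact permutation test over lists, the smallest value that 2 lists a group allow. Outside clusters the difference was 11.1 points, with the same p in the exact test. The untreated GR lists of 7438 Afos held 1.25% and 2.93% of clustered GR sites. Without replicate 1 the clustered difference was 23.0 points, and without replicate 2 it was 1.02 points. With lists cut to equal length it turned to -0.684 points (exact permutation p = 0.667).

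Clustered ER sites, ER-only and shared together, were present in 7438 Afos somewhat less often than other ER sites with E2. The E2 lists held 54.2% and 48.7% of clustered ER sites, against 59.1% and 52.3% of ER sites outside clusters. At least 1 E2 list held 57.0% of clustered ER sites (54.6 to 59.4%), against 60.5% of all ER sites. The differences were -4.84 points (-7.57 to -2.13, SE 1.60) and -3.58 points (-6.31 to -0.835, SE 1.55). For presence in at least 1 list the difference turned to 1.17 points when only sites from the list's median density upward were counted, and to 1.49 points with lists cut to equal length. Taken apart, 64.3% of clustered and 66.4% of other ER-only sites were in at least 1 E2 list, a difference of -2.04 points (-5.03 to 0.890). For shared sites the shares were 33.8% and 32.7%, a difference of 1.01 points (-4.58 to 6.76). Shared sites made up 23.8% of clustered ER sites and 14.5% of the others. In the Dex+E2 lists 44.0% and 26.8% of clustered ER sites were present, and 44.6% were in at least 1, against 44.5% of all ER sites. The mean share was 51.5% ± 3.90 (SD, n = 2 lists) with E2 and 35.4% ± 12.1 with Dex+E2. The difference of -16.1 points again gave p = 0.33, the smallest possible in the exact permutation test. Outside clusters it was -21.3 points. The untreated ER lists of 7438 Afos held 0% and 0.120% of clustered ER sites. Without replicate 1 the clustered difference was -21.9 points, and without replicate 2 it was -10.3 points.

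Between sites of like strength, clustered sites were missing from 7438 Afos lists more often than other sites. For GR the differences within 5 strength classes were -9.76 points in the Dex list of replicate 1 (SE over chains 0.964) and -11.2 points in that of replicate 2 (SE 0.904). In the Dex+E2 lists they were -8.13 points (SE 1.02) and -8.25 points (SE 0.974). For ER they were -9.68 points (SE 1.45) and -9.41 points (SE 1.34) in the E2 lists. In the Dex+E2 lists they were -4.99 points (SE 1.48) and -3.01 points (SE 1.29). All 8 differences were negative, although over all strengths all 4 GR differences (0.451 to 1.98 points) and 2 of the 4 ER differences were positive. When only sites from the median density upward were counted in the compared lists, the difference for presence in at least 1 list was smaller, -3.35 points for GR with Dex and -5.33 points for ER with E2.

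The shortfall lay in weak and middling sites and was small among the strongest. In the weakest class of the Dex list, the 7438 Afos Dex list of replicate 1 held 15.3% of clustered GR sites and 29.4% of other GR sites. In the middle class it held 41.6% and 58.9%, and in the strongest 97.4% and 98.7%. In replicate 2 the shares were 2.18% and 9.88% in the weakest class, 17.1% and 31.9% in the middle class and 90.3% and 94.4% in the strongest. For ER the E2 list of replicate 1 held 22.5% of clustered and 37.2% of other sites in the weakest class, and 86.2% and 89.3% in the strongest. In the E2 list of replicate 2 these shares were 15.02% and 26.8%, then 86.2% and 89.1%. In the Both lists, the weakest GR sites went the other way (31.3% clustered, 16.3% other), while the weakest ER sites had 66.8% and 69.3%.

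**Figure D4:**
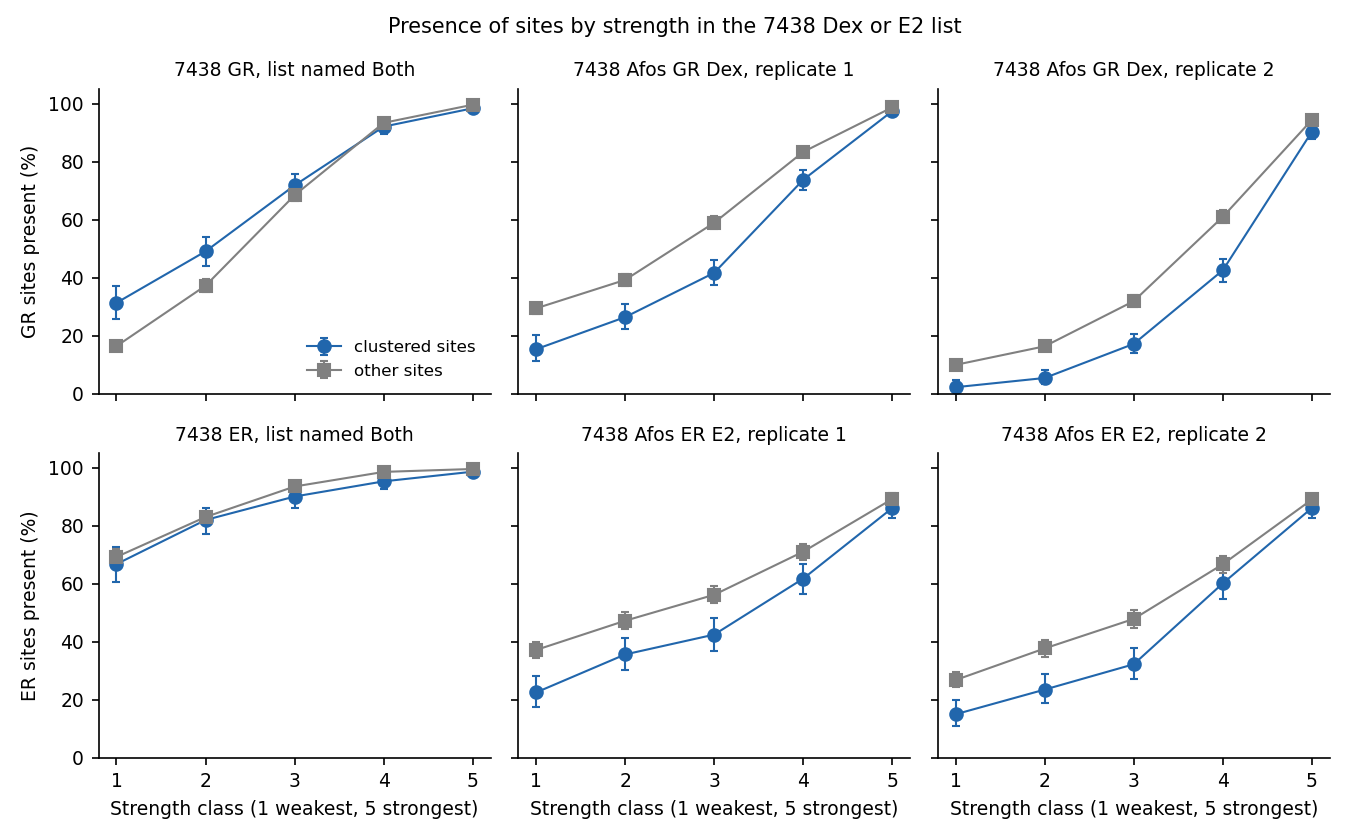
Share of GR sites (top) and ER sites (bottom) present in 3 lists each, in percent, by class of strength in the 7438 Dex or E2 list, for clustered sites (blue) and other sites (grey), with exact 95% intervals. In the 7438 Afos lists the clustered sites lie below the others in each class and come near them in the strongest, for example 97.4% against 98.7% for GR in replicate 1.

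The GR-only and shared sites behaved alike in sign. Within strength classes, GR-only clustered sites differed from other GR-only sites by -9.49 points (SE 1.03) and -11.1 points (SE 0.971) in the Dex lists. Shared clustered sites differed in GR from other shared sites by -5.12 points (SE 2.32) and -5.83 points (SE 2.04). ER-only clustered sites differed by -7.69 points (SE 1.56) and -8.67 points (SE 1.47) in the E2 lists. The ER of shared sites was the exception, with 0.645 points (SE 2.87) and 2.42 points (SE 2.86) in classes of GR strength. Without sites that had a neighbour within 1000 bp, the differences for presence in at least 1 list were -10.7 points for GR and -10.2 points for ER, against -10.2 and -9.30 points with them.

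**Figure D5:**
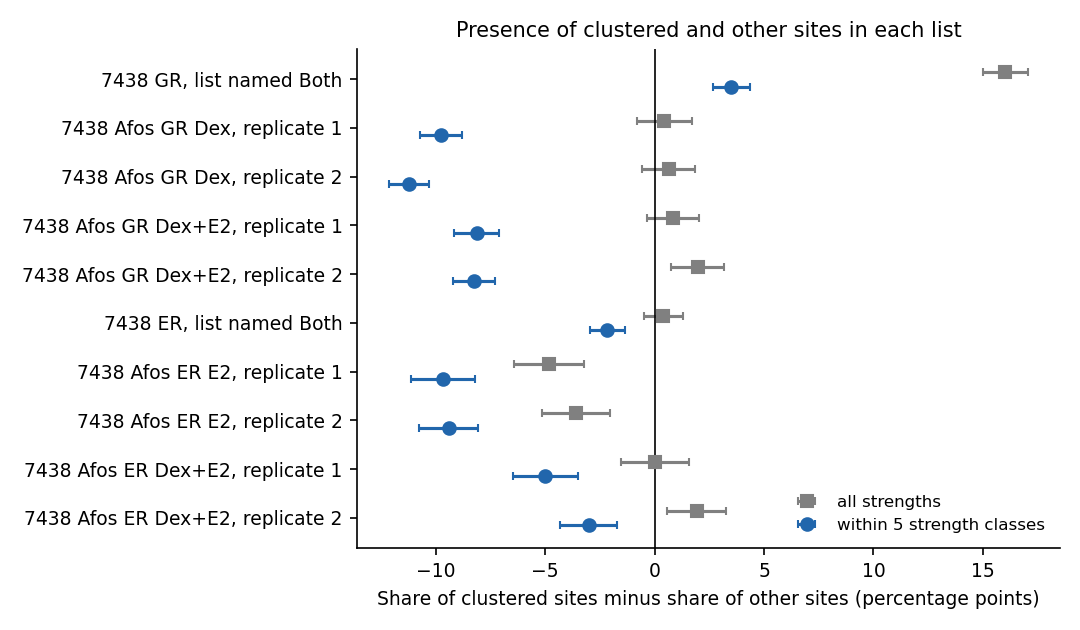
Share of clustered sites minus share of other sites present in each list, in percentage points, over all strengths (grey) and within 5 strength classes (blue). Bars are 1 SE over chains. All 8 7438 Afos lists lie below 0 within strength classes, from -11.2 to -3.01 points, and the GR list named Both lies above 0, at 3.51 points.

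In 7438 Afos too, sites of 1 receptor appeared in the other receptor's lists with Dex+E2. Of clustered ER-only sites 37.2% and 25.9% were in the 2 GR Dex+E2 lists, against 31.0% and 17.2% outside clusters, and 39.1% of the clustered and 33.2% of all ER-only sites were in at least 1. Within strength classes the differences were 1.52 points (SE 1.65) and 5.36 points (SE 1.48). Of clustered GR-only sites 12.1% and 5.87% were in the ER Dex+E2 lists, against 8.53% and 3.34% outside clusters, and 12.3% of the clustered and 9.45% of all GR-only sites were in at least 1. Within strength classes the differences were 1.61 points (SE 0.872) and 1.56 points (SE 0.631). When sites with a neighbour within 1000 bp were left out, the ER-only shares were 29.4% and 17.7% in clusters and 29.5% and 15.4% outside. The GR-only shares were then 9.28% and 3.95% in clusters and 7.79% and 2.90% outside. The GR Dex lists, without E2, held 7.17% and 4.09% of clustered ER-only sites against 1.65% and 0.748% outside. Without close neighbours these became 0.753% and 0% in clusters and 0.508% and 0.0968% outside.

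Within 7438 Afos the sites that persisted did so at every density. Of the 1036 clustered GR sites in both Dex lists, 1032 (99.6%) were in at least 1 Dex+E2 list, against 99.7% outside clusters. Of the 765 clustered ER sites in both E2 lists, 595 (77.8%, interval 74.7 to 80.7%) were in at least 1 Dex+E2 list, against 75.02% outside clusters (73.3 to 76.6%).

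In 7438 Afos most clusters kept some but not all sites of a receptor, while in the lists named Both many were kept whole. Among the 525 clusters with at least 3 GR sites, 187 (35.6%) had every GR site in the list named Both and 7 had none. In 7438 Afos with Dex 91 (17.3%) had every GR site in a list, 406 had some and 28 (5.33%) had none. Among the 295 clusters with at least 3 ER sites, 184 (62.4%) had every ER site in the ER list named Both, and all of the others had some. With E2 in 7438 Afos 62 (21.0%) had every ER site, 208 had some and 25 (8.47%) had none. These counts depend on the shares of single sites. In the lists named Both 76.4% of clustered GR sites and 88.6% of clustered ER sites were present. In at least 1 7438 Afos list with the ligand alone 60.5% and 57.0% were. Whether sites of a cluster were kept together beyond these shares was not tested.

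Counting all sites of a cluster, each in the lists of its own receptor and ligand alone, 17 clusters (2.33%) were wholly absent from 7438 Afos and 89 (12.2%) were wholly present. Such counts also depend on the shares of single sites and were not tested against them. The largest absent cluster lay on chromosome 15 (101190956 to 101218908), with 3 GR-only and 3 ER-only sites in 28.0 kb. Its GR densities went from 19.4 to 31.0, its ER densities from 11.2 to 18.9, and no 7438 Afos list of any treatment held any of its sites. All 3 GR sites and 2 of its 3 ER sites were in the lists named Both. The next, on chromosome 4 (58475546 to 58484307), had 5 GR-only sites, of which 4 were in the GR list named Both. The third, on chromosome 12 (71796231 to 71808776), had 2 of its 4 GR sites in a 7438 Afos GR list with Dex+E2. The largest clusters that were wholly present were the ER-only cluster on chromosome 7 and an ER-only cluster of 8 sites on chromosome 16 (3232258 to 3241198). All 8 of the latter were in both E2 lists. A cluster of 5 ER-only and 2 GR-only sites followed on chromosome 8 (123483243 to 123496696). The 3 wholly present clusters were chosen by size in the same way as the absent ones, after their values were seen.

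When the same rule was applied to other pairs of lists, 510 of the 729 clusters (70.0%) overlapped a cluster formed from the 2 lists named Both. Those lists gave 710 clusters with 3832 sites, of which 35.5% were shared, against 26.2% of all their merged sites. The 7438 Afos lists with Dex and with E2 gave 297 clusters in replicate 1 and 117 in replicate 2, which met 228 (31.3%) and 106 (14.5%) of the 729. Their merged sites numbered 14481 and 9561, and 9.66% and 5.65% of them were clustered, against 21.2% in 7438. The 7438 Afos lists with Dex+E2 gave 319 and 173 clusters, which met 203 (27.8%) and 148 (20.3%). The lists differ in length, so these counts are given without a test. Of the 612 sites of the GR list named Both that lay at no merged site, 64 (10.5%) fell inside the span of a cluster. For the ER list named Both this held for 229 of 3789 (6.04%), and in the 8 7438 Afos lists with a receptor's own ligand for 1.53 to 2.66%. Of all sites of a list, those at merged sites included, the share inside cluster spans was higher in each list. It was 25.003% for the GR list named Both, 18.8% for the ER list named Both and 13.04 to 20.01% in the 7438 Afos lists.

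Chains of 3 sites, just outside the rule, were close to clusters of 4. GR sites of the 775 chains of 3 were in the list named Both in 68.9% of cases, against 73.1% in the 350 clusters of 4, and in a 7438 Afos Dex list in 59.7% and 57.9%. ER sites were in the ER list named Both in 89.5% and 88.5% of cases, and in a 7438 Afos E2 list in 55.6% and 57.4%. Shared sites made up 9.08% and 9.86%.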

How the data were processed

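Site lists of ChIP-seq for GR and ER were used from 24 samples, and the other samples were not analysed here. The submitters' processing notes name mouse build mm9 and CASAVA 1.8. For the aligner, peak caller, input control and thresholds, the answer is not given in the sources used here. Per the file headers, each deposited site comes with its highest tag density, a signal computed by the authors, and with a z-score, a score from the authors. A p-value deposited in the 7438 Afos lists was left unused. Because no source states how tag density was scaled, densities were only ordered inside a list. The 7438 lists number sites beyond their own length, so some sites were taken out by the authors. Positions are given as listed. Groups follow the labels, except that the lists named Both and unt go by name.

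GR Dex and ER E2 sites were merged, chained and called clusters as described, and a merged site was present in a list if it shared at least 1 bp with a site of it. Shares were compared with sites outside clusters, over all strengths and within 5 equal classes of rank, weighted as the clustered sites, with SE over chains. Mean shares of 2 lists against 2 were compared by two-sided exact permutation. The members, lists and alternatives were chosen with earlier results of these data known. Regions were named by rule: the 10 clusters with most sites (ties by shorter span, chromosome 18 left out), the 5 strongest clustered sites of each receptor and the 3 largest clusters absent from 7438 Afos. Alternatives changed the gap, cluster size, overlap, density limit, list length, lists and weights. Simulated data with a true difference of -10 points gave a mean of -9.92 over 20 draws, and with none -0.142. In both the planted clusters were found in all 20. The simulated data had no shared sites and no wide site that reached a neighbour, so these features of the lists were not covered. Site by site, differences between replicates 1 and 2 of 7438 Afos were nearly uncorrelated between the own-ligand and Dex+E2 lists. The values were r = -0.0403 over 2559 GR sites and 0.0149 over 1667 ER sites. This correlation cannot show a shift common to all sites of a list. Genes, sequences and motifs are not given, since no mm9 reference was used here. Python 3.11.15, NumPy 2.4.6, SciPy 1.17.1, pandas 2.3.3 and matplotlib 3.10.9 were used.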

Additional observations from a re-analysis of the deposited data

Results flagged for a closer look

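Clustered GR sites, GR-only and shared together, moved in opposite directions in the 2 settings once strength was matched. Relative to other GR sites of like strength they were present more often in the 7438 GR list named Both, by 3.51 points. Taken apart, GR-only sites differed there by 2.18 points (SE 0.892) and shared sites by -0.114 points (SE 1.05). In the 7438 Afos Dex lists clustered GR sites were present less often, by -9.76 points in replicate 1 and -11.2 points in replicate 2. The difference between the settings was not tested, since 7438 has 1 list. In the 7438 Afos Dex+E2 lists the differences were -8.13 and -8.25 points. The width of the sites differs between the cell backgrounds, so the effects of width and background cannot be told apart here.

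The 7438 Afos GR lists with E2 alone, which the main comparisons did not use, held clustered ER-only sites. The list of replicate 1 held 8.66% of the 1270 and that of replicate 2 held 2.52%, above the 0.157% and 0.630% in the untreated GR lists of the same cells. Outside clusters 6.31% and 1.48% of ER-only sites were in the E2 lists, and within strength classes clustered sites differed from the others by -0.106 points (SE 1.01) and 0.313 points (SE 0.542). Without sites that had a neighbour within 1000 bp, the E2 lists held 7.28% and 2.63% of the clustered ones. In 7438 the GR list with E2 alone held 2.60% of clustered and 1.09% of other ER-only sites.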

How the results depend on the processing

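Of 253 alternative values, 145 were counted as kept, 93 as moved and 15 as reversed, and the cause was not tested. Kept means direction and size, except for the Afos differences between Dex+E2 and the receptor's own ligand. For these only the sign was compared, and 11 of 12 GR values and all 12 ER values were counted as kept. The ER values went from -21.9 to -7.71 points. The rule set the number of clustered sites (3829): 1551 and 6711 with gaps of 5 and 25 kb, 6154 and 2429 with at least 3 and 5 sites, 1739 and 725 from GR Dex or ER E2 alone, and 1348 with sites of at least the median density. For GR in the list named Both the share was 79.6% and 73.0% with the 2 gaps, 73.5% and 78.4% with 3 and 5 sites, 49.9% with the median density, 52.5% with lists of equal length and 2.23% in the list named unt, where the difference at matched strength was 1.16 points. For ER it was 86.6% by site centre, 70.3% with the median density, 41.0% with equal length and 4.26% in the list named unt. The matched ER difference then reversed to 3.58 points with the median density, 3.89 with equal length and 2.24 in the list named unt, and the unmatched one to -0.0452 (gap 25 kb), -0.782 (site centre) and -2.16 (within classes).

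For an Afos GR Dex list the share was 43.6% with the median density, 40.5% in both lists and 40.8 to 60.2% leaving out a replicate. The unmatched difference reversed to -2.08 (gap 25 kb), -0.400 (3 sites), -0.231 (site centre), -1.13 (no neighbour within 1000 bp), -0.640 (clusters weighted equally) and -10.2 (within classes). The matched one, -10.2, was -9.06 with 3 sites, -3.35 with the median density, -7.79 with equal length and -11.9 against sites alone. For an Afos ER E2 list the share was 42.6% with the median density, 40.6% with equal length, 45.9% in both lists and 48.7 to 54.2% leaving out a replicate. Its matched difference, -9.30, was -9.82 (gap 25 kb), -10.4 and -10.001 (3 and 5 sites), -9.61 (site centre), -5.33 (median density), -5.21 (equal length), -9.57 (20 classes), -10.2 (no neighbour within 1000 bp), -10.3 (equal weights), -12.6 (sites alone), -9.79 (both lists) and -9.68 to -9.41 leaving out a replicate. The unmatched one reversed to 1.17 with the median density and 1.49 with equal length.

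ER-only sites in the GR list named Both came to 33.8% and 26.1% with the 2 gaps, 13.0% with the median density, 14.2% with equal length and 0.0787% in the list named unt. Their matched difference was 10.3 points with the gap of 5 kb and 0.0418 in the list named unt. GR-only sites in the ER list named Both came to 30.8% and 23.2% with the 2 gaps, 23.8% with 3 sites, 23.7% by site centre, 12.5% with the median density, 4.53% with equal length and 0.971% in the list named unt. Their matched difference was 8.65 (gap 5 kb), 2.55 (equal length), 8.14 (sites alone) and 0.180 (list named unt). The rise of GR sites with Dex+E2 reversed to -0.684 points with lists of equal length (exact permutation p = 0.667). Leaving out a replicate it ranged from 1.02 to 23.0 points, and the ER difference from -21.9 to -10.3. With the replicate number as a block, the differences were 12.0 and -16.1 points, each with an exact permutation p = 0.5. Whether same-numbered lists belong together is not known, since the correlation over sites cannot show a shift common to a whole list.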

Other observations

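The share of merged sites that lay in clusters varied between chromosomes. It was 28.9% on chromosome 5 (303 of 1049 sites), 28.5% on chromosome 8 and 26.7% on chromosome 12, against 13.7% on chromosome 14 and 9.79% on the X chromosome (19 of 194 sites). Chromosome 2 held the most clusters, 68.

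The 7438 ER list with Dex alone held 10149 sites, more than the 7136 with E2, yet it met only 82 of the 3829 clustered sites (2.14%, exact interval 1.71 to 2.65%). Outside clusters it met 1.27% of merged sites. The median tag density in that list was 13.2, against 17.1 in the E2 list, and 41 and 61 sites were listed for ER with Dex in the 2 lists of 7438 Afos.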
